A study of Mus musculus with 12 samples.

Results

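The genes described here are the envelope genes of the epidermal differentiation complex, a dense cluster on mouse chromosome 3 whose products build the hardened shell of the outermost skin cells. They were taken by name: every gene whose symbol starts with Lce or Sprr, and Ivl, Lor, Flg, Flg2, Hrnr, Rptn, Tchh, Tchhl1, Crct1, Crnn, Lelp1 and Kprp. The S100 genes of the same cluster were left out. With probe sets that name a single gene, 37 of the 17853 genes measured were members, namely 15 Lce genes, 12 Sprr genes and 10 others, on 114 probe sets. Flg and Hrnr had no probe set of their own.

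The cornified envelope is a layer of cross-linked protein that forms beneath the plasma membrane as a keratinocyte dies at the skin surface. Involucrin is laid down early as a scaffold, small proline-rich proteins bridge other chains, loricrin reinforces the shell, and late cornified envelope proteins and filaggrin-like proteins are added in the last living layer. Transglutaminases join these chains to each other. The genes are usually silent in basal cells and switched on in the spinous and granular layers, and the openings and ducts of hair follicles also carry a cornifying lining.

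The cells came from the back-skin epidermis of female Gata6-mTomato reporter mice on a C57BL6/CBA background, in telogen, when hair follicles rest; the mice were matched for age and sex, and their age was not given in the labels. Gata6 is a transcription factor of the upper follicle and sebaceous duct, Itga6 the integrin chain that anchors basal cells, and CD34 a surface marker of bulge stem cells. Flow cytometry gave 4 populations of 3 arrays each. The first is Gata6+ Itga6-, the second Gata6+ Itga6+, the third CD34+ Itga6+ (negative for Gata6), and the fourth the remaining Itga6+ cells, negative for both Gata6 and CD34. All 4 carried the reporter, and the Gata6 gate rests on it. The labels call the 3 samples of a population biological replicates and do not say whether populations share animals or whether animals were pooled, so p-values measure the spread between these samples.

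RNA was amplified and hybridized to exon arrays, and a gene's level is the median, over its probe sets, of log2(intensity + 1). Levels are relative brightnesses of the same probe sets across arrays and are never set against another gene's. As a floor, the level of silent genes was taken from 1144 olfactory and vomeronasal receptor genes; it lay at 2.42, the 95th percentile of their means. The sort was visible in the RNA. Gata6 was at 5.84 ± 0.05 (SD, n = 3) in Gata6+ Itga6- cells, 4.39 ± 0.34 in Gata6+ Itga6+ cells, 2.73 ± 0.34 in remaining Itga6+ cells and 2.84 ± 0.29 in CD34+ Itga6+ cells, over the silent level in all 4. Itga6 was lowest in the Gata6+ Itga6- cells at 6.02 ± 0.31. It was at 7.28 ± 0.13 in Gata6+ Itga6+, 7.67 ± 0.44 in remaining and 6.76 ± 0.40 in CD34+ Itga6+ cells. In limma it was not called lower than in CD34+ Itga6+ cells (log2 change -0.74, adjusted p 0.131). Cd34 exceeded the silent level only in the CD34+ Itga6+ cells, at 7.95 ± 0.03. All 5 basal keratinocyte markers were called lower without Itga6 than with it among the Gata6+ cells, against 2.01% of all genes. All 5 upper follicle markers were over the silent level in both Gata6+ populations, and 3 of them also in remaining and in CD34+ Itga6+ cells. Across genes, arrays correlated at 0.935 to 0.957 within a population and at 0.828 to 0.941 between populations. With 3 arrays a population, their number sets the precision.

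By the median of their probe sets, 22 of the 37 members (59.5%) had means under the silent level in all 4 populations, as did 8547 of all 17853 genes (47.9%). The number of members over that level was 14 in Gata6+ Itga6- cells, 9 in Gata6+ Itga6+ cells, 7 in remaining Itga6+ cells and 7 in CD34+ Itga6+ cells. Some lay close to it, such as Tchh at 2.43 in Gata6+ Itga6+ cells. The share of all genes over that level was not counted by population, so nothing is read from these counts. The members that separated the populations were Sprr1a and Sprr4, involucrin (Ivl), loricrin (Lor), repetin (Rptn), Crct1 and Lce6a.

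**Figure D1:**
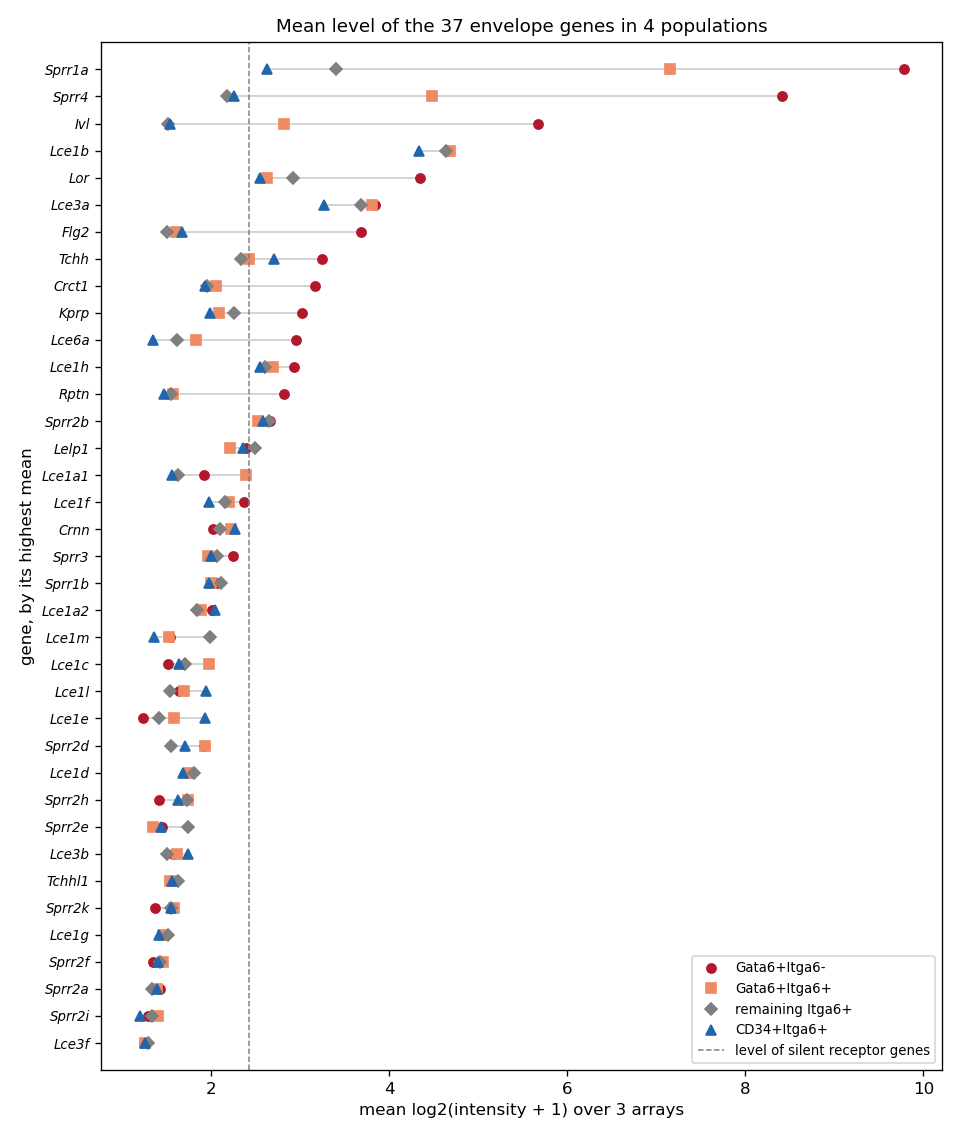
Mean log2(intensity + 1) over 3 arrays (horizontal axis) of each of the 37 envelope genes (rows, sorted by their highest mean), 1 symbol per population; the dashed line is the silent level of 2.42. Sprr1a, Sprr4 and Ivl spread widely between populations, while 22 genes stay left of the line throughout; positions of different genes are not comparable, since their probe sets differ.

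Each pair of populations was compared with limma over all 17853 genes, and an adjusted p (Benjamini-Hochberg) under 0.05 counts as a call. In Gata6+ Itga6- cells against Gata6+ Itga6+ cells, 7 of 37 members were called higher and none lower, beside 1.17% of all genes called higher and 2.01% lower. In Gata6+ Itga6+ cells, 3 of 37 members were higher than in CD34+ Itga6+ cells and none lower, against 2.4% and 2.18% of all genes. Against the remaining Itga6+ cells, 2 of 37 members were higher in Gata6+ Itga6+ cells and none lower, against 1.07% and 0.286% of all genes. Between CD34+ Itga6+ and remaining Itga6+ cells, 0 of 37 members were called, against 5% of all genes called either way; limma gave 1 member at an unadjusted p under 0.05, and moderation with a trend and robust variances called 1, Lce1e, whose means are under the silent level.

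In Gata6+ Itga6- cells, 7 members were higher and 1 lower than in CD34+ Itga6+ cells, where 3.22% and 4.74% of all genes were called, and 6 were higher and none lower than in remaining Itga6+ cells, where 2.96% and 2.15% were called. These comparisons share arrays and are not independent of each other. The median log2 change of the members was 0.04 between the Gata6+ populations, against -0.03 over all genes, and lay between -0.07 and 0.09 in the other 5 comparisons. Leaving out 1 array at a time, between 4 and 7 members were called between the Gata6+ populations, with 4 (Crct1, Ivl, Rptn and Sprr4) without Gata6+ Itga6- replicate 1 or 3 or Gata6+ Itga6+ replicate 2. Between Gata6+ Itga6+ and remaining cells 1 to 3 were called, with Sprr1a alone without Gata6+ Itga6+ replicate 1 or 2 or remaining replicate 1 or 2. Fits of just the 2 populations compared called 1 member for Gata6+ Itga6+ against CD34+ Itga6+ cells and 0 against remaining cells. The array names carry 1 of 3 letters, whose meaning is not given. Within each letter, every called member differed in the same direction as in the whole. These members were called on the same arrays, so this agreement is no independent check. At an unadjusted p under 0.05 in limma, 2 members were lower and 10 higher in the Itga6- than in the Itga6+ cells of the Gata6+ gate. In Gata6+ Itga6+ cells, 0 were lower and 4 higher than in CD34+ Itga6+ cells, and 1 lower and 4 higher than in remaining cells. In Gata6+ Itga6- cells, 1 was lower and 10 higher than in remaining cells, and 1 lower and 9 higher than in CD34+ Itga6+ cells. The share of all genes at this threshold was not counted, so nothing is read from these counts. In bulk RNA, fewer cells with a transcript and less of it per cell cannot be told apart.

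Sprr1a, a small proline-rich protein that bridges other envelope chains, separated both Gata6+ populations from the rest. It read 9.75, 9.77 and 9.82 on the 3 arrays of Gata6+ Itga6- cells, 7.92, 7.08 and 6.44 in Gata6+ Itga6+ cells, 2.72, 2.82 and 4.65 in remaining Itga6+ cells, and 2.26, 2.94 and 2.66 in CD34+ Itga6+ cells. The groups were ordered without overlap except for the last pair, in which replicate 3 of the remaining cells stood well above the others. That array had an upper quartile of intensity of 16.0 against 12.1 and 12.4 on the other arrays of its population. CD34+ Itga6+ replicate 3, with an upper quartile of 17.6, read 2.66. Any link between array brightness and Sprr1a was not tested. Between the Gata6+ populations Sprr1a differed 6.2-fold, higher without Itga6 (log2 change 2.63, SE 0.50, adjusted p 0.0194). The Gata6+ Itga6+ level was 23.1-fold that of CD34+ Itga6+ cells (log2 change 4.53, SE 0.50, adjusted p 0.000471) and 13.5-fold that of the remaining cells (log2 change 3.75, adjusted p 0.00469). From CD34+ Itga6+ to Gata6+ Itga6- cells the difference came to 143-fold (adjusted p 9.44e-06), and from remaining cells to 83.6-fold (4.17e-05). The call between the 2 Gata6+ populations was lost without any 1 of the 3 Gata6+ Itga6- arrays or without replicate 2 or 3 of the Gata6+ Itga6+ cells, with log2 changes of 2.28 to 3.02 over all such fits and an adjusted p of at most 0.0798. The 2 probe sets of Sprr1a differed in size of change: the brightest alone gave 3.43 between the Gata6+ populations (adjusted p 0.00348), 2.67 for Gata6+ Itga6+ minus CD34+ Itga6+ cells (0.0109), and 2.26 for Gata6+ Itga6+ minus remaining cells, no longer called (0.0563). The last comparison was also not called when fitted on just those arrays (adjusted p 0.084); it was called without any 1 array, at log2 changes of 3.37 to 4.38, the highest without remaining replicate 3. Without that array the change between Gata6+ Itga6- and remaining cells was 7.01.

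Sprr4, a further member of that family, is read by a single probe set. On the Gata6+ Itga6- arrays it stood at 8.33, 8.46 and 8.43, on the Gata6+ Itga6+ arrays at 5.70, 4.56 and 3.18, on the remaining Itga6+ arrays at 2.49, 1.87 and 2.17, and on the CD34+ Itga6+ arrays at 2.08, 2.78 and 1.90. The Gata6+ Itga6- arrays agreed closely, the Gata6+ Itga6+ arrays were widely spread (SD 1.26), and both populations outside the Gata6+ gate lay around the silent level. The step between the Gata6+ populations was 15.2-fold (log2 change 3.92, SE 0.51, adjusted p 0.00293); it was 3.27 without Gata6+ Itga6+ replicate 3, 4.53 without replicate 1, and called without any 1 array. In addition, the Gata6+ Itga6- level was at least 63.2-fold that of either population outside the Gata6+ gate. Counted from the silent level, the Gata6+ Itga6+ cells were at least 4.16-fold above the CD34+ Itga6+ cells (log2 change 2.23, SE 0.51, adjusted p 0.0332), a call lost in 7 of 12 fits that left out 1 array (without any Gata6+ Itga6- array, Gata6+ Itga6+ replicate 1 or 2, or CD34+ Itga6+ replicate 1 or 3; adjusted p up to 0.108, log2 change 1.62 to 2.88). Against the remaining cells the log2 change was 2.31 (SE 0.51) and was not called, with an adjusted p of 0.0647; without replicate 3 of the Gata6+ Itga6+ cells it was 2.96 and called, at 0.00651.

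Involucrin, the early scaffold of the envelope, was also highest in Gata6+ Itga6- cells and next in Gata6+ Itga6+ cells. Ivl read 5.94, 5.80 and 5.27 in Gata6+ Itga6- cells, 3.22, 2.83 and 2.38 in Gata6+ Itga6+ cells, 1.54, 1.42 and 1.56 in remaining Itga6+ cells, and 1.38, 1.43 and 1.80 in CD34+ Itga6+ cells. The 2 Gata6+ populations overlapped neither each other nor the others, and the populations outside the Gata6+ gate were both under the silent level. The level in Gata6+ Itga6- cells was 7.26-fold that in Gata6+ Itga6+ cells (log2 change 2.86, SE 0.23, adjusted p 0.000123) and at least 9.49-fold higher than in either population outside the Gata6+ gate. From the silent level, the Gata6+ Itga6+ cells stood at least 1.31-fold above CD34+ Itga6+ cells for Ivl (log2 change 1.27, SE 0.23, adjusted p 0.0103) and above remaining cells (log2 change 1.30, adjusted p 0.0228). The last call was lost without Gata6+ Itga6+ replicate 1 or 2 or remaining replicate 1 or 2, with an adjusted p of at most 0.0951 and log2 changes of 1.10 to 1.52. The size of the step between the Gata6+ populations depended on how the 5 probe sets were joined: it was 1.90 with their mean, 3.48 with the brightest and 2.04 with 8 added before the log, called each time. With 8 added, the calls of Gata6+ Itga6+ against CD34+ Itga6+ and remaining cells were lost (adjusted p 0.111 and 0.191).

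Within the Gata6+ Itga6+ cells, replicate 1 was the brightest and replicate 3 the dimmest array for Sprr1a, Sprr4 and Ivl alike. Of the 9 members over the silent level there, 5 were ordered in this way and 1 in the opposite way, and of the 22 partners described further on 9 and 1. Of the 18 regulators measured, also described further on, 3 and 2 were so ordered, and over all 37 members the counts were 7 and 10. These orders were not counted over all genes. The upper quartiles of intensity of the same arrays were 15.8, 15.7 and 16.6, with replicate 3 the highest. The part of any 1 array in these differences was not tested beyond leaving it out.

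**Figure D2:**
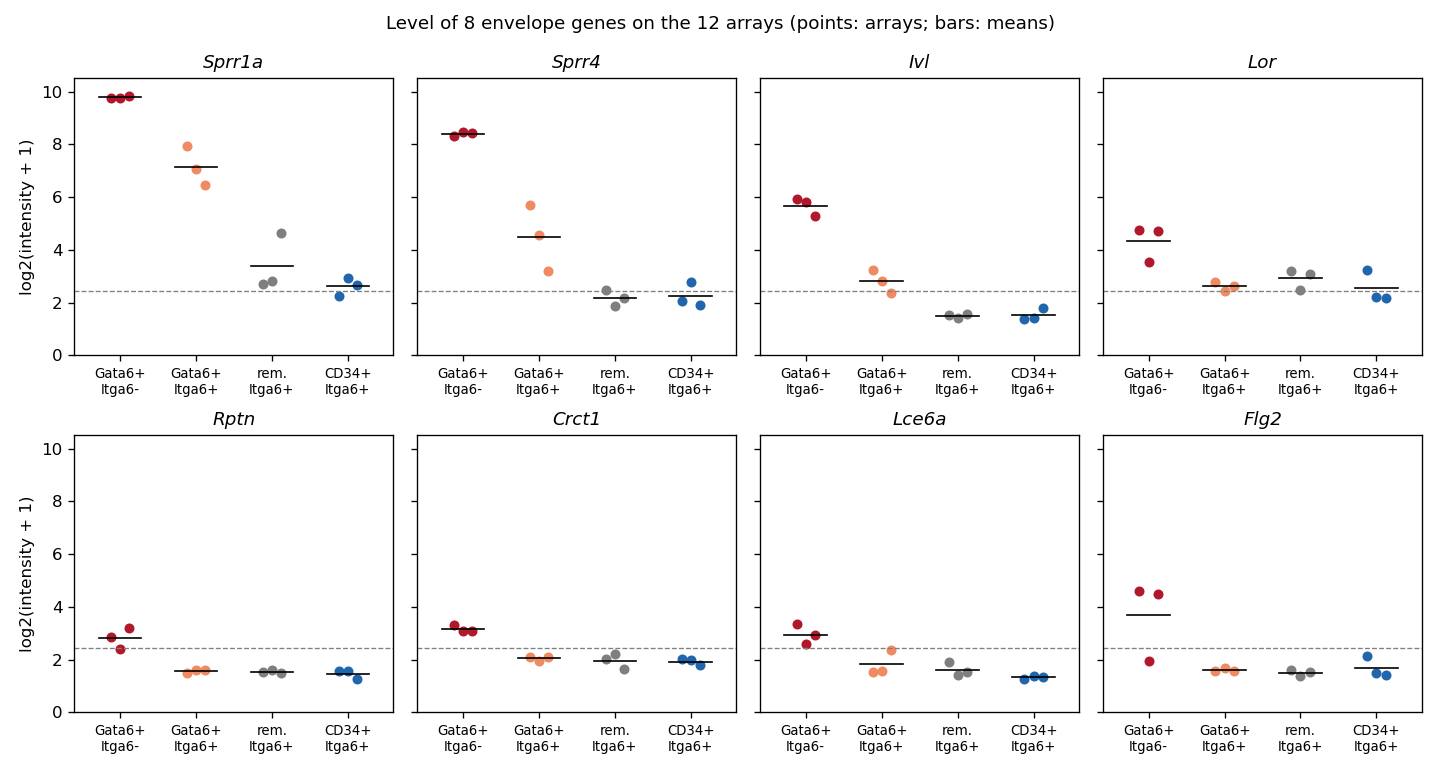
Level, log2(intensity + 1), of 8 envelope genes on each of the 12 arrays; points are arrays, black bars means of 3, and the dashed line the silent level. Sprr1a, Sprr4 and Ivl step down from Gata6+ Itga6- to Gata6+ Itga6+ cells and again to the others, while Lor, Rptn, Crct1, Lce6a and Flg2 are raised chiefly in Gata6+ Itga6- cells, where replicate 2 of Flg2 lies at 1.94.

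Loricrin, the main reinforcement protein of the envelope, was raised in Gata6+ Itga6- cells, unevenly between arrays. Lor read 4.75, 3.56 and 4.73 in Gata6+ Itga6- cells, 2.79, 2.46 and 2.63 in Gata6+ Itga6+ cells, 3.21, 2.46 and 3.07 in remaining Itga6+ cells, and 3.24, 2.21 and 2.17 in CD34+ Itga6+ cells. All 3 arrays of Gata6+ Itga6- cells were above all others, and the other 3 populations overlapped. The Gata6+ Itga6- level of Lor was 3.3-fold that of Gata6+ Itga6+ cells (log2 change 1.72, SE 0.37, adjusted p 0.0354) and 3.5-fold that of CD34+ Itga6+ cells (log2 change 1.81, adjusted p 0.0136), and was not called against remaining cells (log2 change 1.43, adjusted p 0.0592). The first call was lost without Gata6+ Itga6- replicate 1 or 3 or any Gata6+ Itga6+ array (adjusted p up to 0.14, log2 change 1.52 to 2.12), and the second without Gata6+ Itga6- replicate 1 or 3 or CD34+ Itga6+ replicate 2 or 3 (up to 0.0588, 1.60 to 2.20). The third was called without Gata6+ Itga6- replicate 2 (log2 change 1.83, adjusted p 0.0148) and without CD34+ Itga6+ replicate 1 (0.034).

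Of the 15 late cornified envelope genes, Lce6a alone was called higher in any comparison, and the related Crct1 rose with it. Lce6a read 3.35, 2.58 and 2.92 in Gata6+ Itga6- cells, 1.52, 1.56 and 2.38 in Gata6+ Itga6+ cells, 1.89, 1.43 and 1.53 in remaining Itga6+ cells, and 1.28, 1.40 and 1.35 in CD34+ Itga6+ cells. Only the first group lay above the silent level, without overlap with the rest. It was at least 1.44-fold higher than in each other population, with log2 changes of 1.13 against Gata6+ Itga6+ cells (SE 0.25, adjusted p 0.0409), 1.33 against remaining cells (0.012) and 1.61 against CD34+ Itga6+ cells (0.00256). The first of these was lost in 9 of 12 fits that left out 1 array, all but those without Gata6+ Itga6- replicate 2, Gata6+ Itga6+ replicate 3 or remaining replicate 1 (adjusted p up to 0.141, log2 change 0.93 to 1.41), and the second without remaining replicate 2 (0.0537).

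Crct1, the cysteine-rich C-terminal protein 1, is encoded among the Lce genes. It read 3.32, 3.10 and 3.07 in Gata6+ Itga6- cells, 2.08, 1.97 and 2.11 in Gata6+ Itga6+ cells, 2.01, 2.21 and 1.64 in remaining Itga6+ cells, and 2.02, 1.99 and 1.79 in CD34+ Itga6+ cells. The first group again stood alone. The log2 change was 1.11 against Gata6+ Itga6+ cells (SE 0.15, adjusted p 0.00331), 1.21 against remaining cells and 1.23 against CD34+ Itga6+ cells. Of its 7 probe sets 2 were called higher in each of these comparisons; the brightest one read 6.07 to 7.34 on all 12 arrays and, used alone, gave a log2 change of 0.16 (adjusted p 0.88) between the Gata6+ populations and of 0.50 (0.37) and -8e-04 against remaining and CD34+ Itga6+ cells.

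Repetin belongs to the fused-type S100 proteins, the filaggrin-like group with a calcium-binding head and a long repeat region. Rptn read 2.85, 2.40 and 3.20 in Gata6+ Itga6- cells, 1.48, 1.60 and 1.62 in Gata6+ Itga6+ cells, 1.55, 1.60 and 1.50 in remaining Itga6+ cells, and 1.57, 1.57 and 1.25 in CD34+ Itga6+ cells. The 9 other arrays lay in a narrow band under the silent level, and Gata6+ Itga6- replicate 2, at 2.40, was also just under it. The Gata6+ Itga6- level of Rptn was at least 1.31-fold that of each other population (log2 changes of 1.25, 1.27 and 1.35, SE 0.18; adjusted p 0.00506 against Gata6+ Itga6+, 0.00193 against remaining and 0.000797 against CD34+ Itga6+ cells).

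Filaggrin-2, another protein of that group, was bright on only some arrays of Gata6+ Itga6- cells; it, Kprp and Tchh are described after their values were seen. Flg2 read 4.60, 1.94 and 4.50 there, between 1.55 and 1.69 in Gata6+ Itga6+ cells, 1.37 to 1.60 in remaining cells and 1.40 to 2.13 in CD34+ Itga6+ cells. Replicate 2 thus fell within the range of the other populations. The log2 change against Gata6+ Itga6+ cells was 2.08 (SE 0.57) and was not called, at an adjusted p of 0.0969; without that array it was 2.95 (adjusted p 0.000262), and the changes against remaining and CD34+ Itga6+ cells, 2.18 (0.0605) and 2.01 (0.0633), became 3.04 and 2.87, both called.

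The 16 probe sets of Flg2 differed in whether this array was dim. In the order of the deposited table, replicate 2 read 5.09 on probe set 1, 4.81 on probe set 15, 3.98 on probe set 11 and 3.73 on probe set 14, each above all 9 arrays of the other populations, while it read 1.65 on probe set 3 and 1.57 on probe set 13, where replicates 1 and 3 read 5.15 to 6.33. Fitted singly, 4 of the 16 probe sets were called higher against Gata6+ Itga6+ cells and 6 against each of the others, none lower. Over all 221205 probe sets, 0.265% were higher and 0.668% lower against Gata6+ Itga6+ cells, 1.55% and 2.43% against CD34+ Itga6+ cells, and 1.37% and 1.01% against remaining cells. Of the 114 probe sets of all members, 11, 19 and 16 were higher in the same comparisons, from 6, 9 and 7 genes, in this fit chosen after seeing the data. Against Gata6+ Itga6+ cells, 0 of 2 probe sets of Lor, 0 of 4 of Rptn and 0 of 4 of Lce6a were called, while 1 of 10 of Kprp was. For Lor, Rptn and Lce6a, 1, 1 and 2 were called against CD34+ Itga6+ cells, and 0, 1 and 1 against remaining cells. Replicate 2 was also the lowest Gata6+ Itga6- array for Lor, Rptn and Lce6a, but not for Sprr1a, Sprr4 or Ivl. Whether probe sets stand for different transcripts was not tested.

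**Figure D3:**
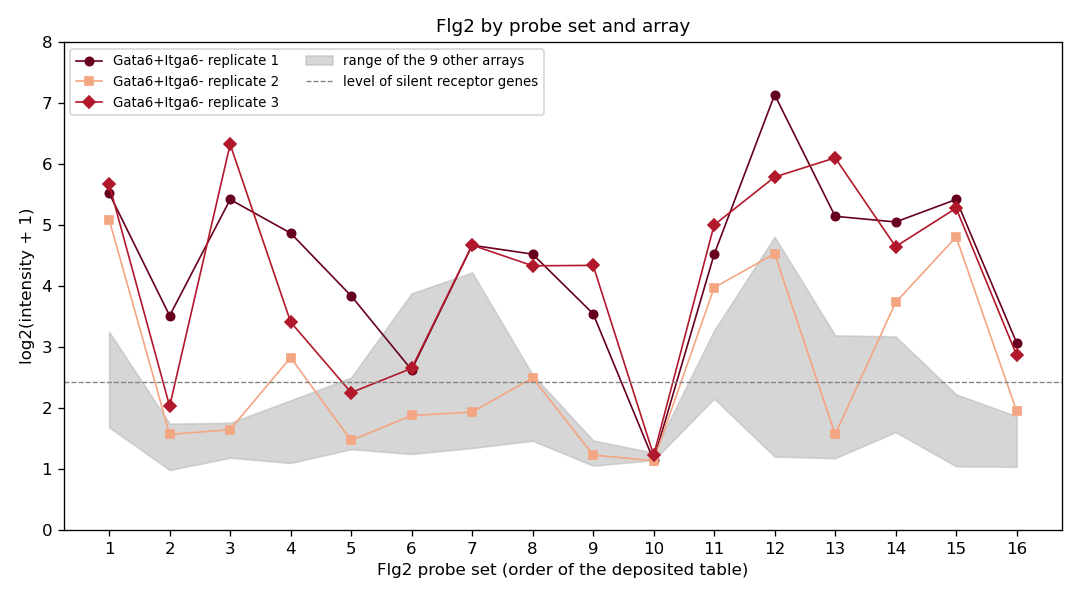
Level, log2(intensity + 1), of the 16 Flg2 probe sets (horizontal axis, in table order) on the 3 Gata6+ Itga6- arrays; the grey band spans the 9 arrays of the other populations and the dashed line is the silent level. Replicate 2 lies above the band on probe sets 1, 4, 11, 14, 15 and 16 and within it or at its edge on the others.

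Filaggrin itself cannot be given a level, because the single probe set that names it also names hornerin. That shared probe set read 2.77, 2.50 and 2.45 in Gata6+ Itga6- cells, 1.35, 1.44 and 1.34 in Gata6+ Itga6+ cells, 1.17, 1.69 and 1.50 in remaining Itga6+ cells, and 1.07, 1.47 and 1.06 in CD34+ Itga6+ cells. The first group stood above the other 9 arrays. It was not tested, since it belongs to no single gene. Kprp, the keratinocyte proline-rich protein, averaged 3.02 ± 0.41 (SD, n = 3) in Gata6+ Itga6- cells and 1.98 to 2.25 elsewhere and was not called (log2 change 0.93, SE 0.31, adjusted p 0.188 against Gata6+ Itga6+ cells). Trichohyalin, known from the inner root sheath, read 3.19, 3.18 and 3.37 in Gata6+ Itga6- cells and 2.03 to 3.23 on the other arrays, and was not called either (log2 change 0.82, adjusted p 0.208 against Gata6+ Itga6+ cells). With the mean of probe sets in place of their median, Tchh and Flg2 were both called higher in Gata6+ Itga6- cells than in each other population. All 10 markers of inner root sheath and hair shaft were under the silent level in Gata6+ Itga6- cells.

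The other members gave little. The 13 Lce1 and Lce3 genes never called had log2 changes between -0.63 and 0.84 in the 6 comparisons, and 10 of them were under the silent level in all populations. Lce1b, Lce1h and Lce3a were over it everywhere, with log2 changes that were not called. Lce1e was called lower in Gata6+ Itga6- than in CD34+ Itga6+ cells (log2 change -0.70, SE 0.16, adjusted p 0.0226), reading 1.31, 1.22 and 1.16 against 1.92, 2.12 and 1.73; both means lie under the silent level, so no fold is given, and the call was lost without any Gata6+ Itga6- array or CD34+ Itga6+ replicate 1 or 2 (adjusted p up to 0.0821). The Gata6+ Itga6+ arrays gave 1.55, 1.39 and 1.81, the remaining arrays 1.23, 1.30 and 1.70. The 8 Sprr2 genes, which are known for their induction in inflamed skin, had means of 1.19 to 2.66 and log2 changes of -0.39 to 0.38; 7 of them were under the silent level throughout, as were Sprr1b, the closest relative of Sprr1a, at 1.98 to 2.10, and Sprr3, a protein of the oesophageal lining, at 1.96 to 2.24. Many Lce1 and Sprr2 genes are near copies of each other, and 12 members had only 1 probe set, so signals of those families may mix and a dim reading is not proof of silence.

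Of the 7 members called between the Gata6+ populations, 4 stand side by side in the cluster. Counting the genes of the list along the RefSeq order, Sprr1a, Sprr4, Ivl and Lce6a are at places 18, 19, 20 and 21 of 50; they include all 3 members called in Gata6+ Itga6+ cells against CD34+ Itga6+ cells. Their neighbours on either side were Sprr3, with a log2 change of 0.28 between the Gata6+ populations, and Lce1a1, with -0.47, neither of them called. Lor is the first gene of the order, Crct1 is at place 42 and Rptn at place 48. This adjacency was not tested.

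**Figure D4:**
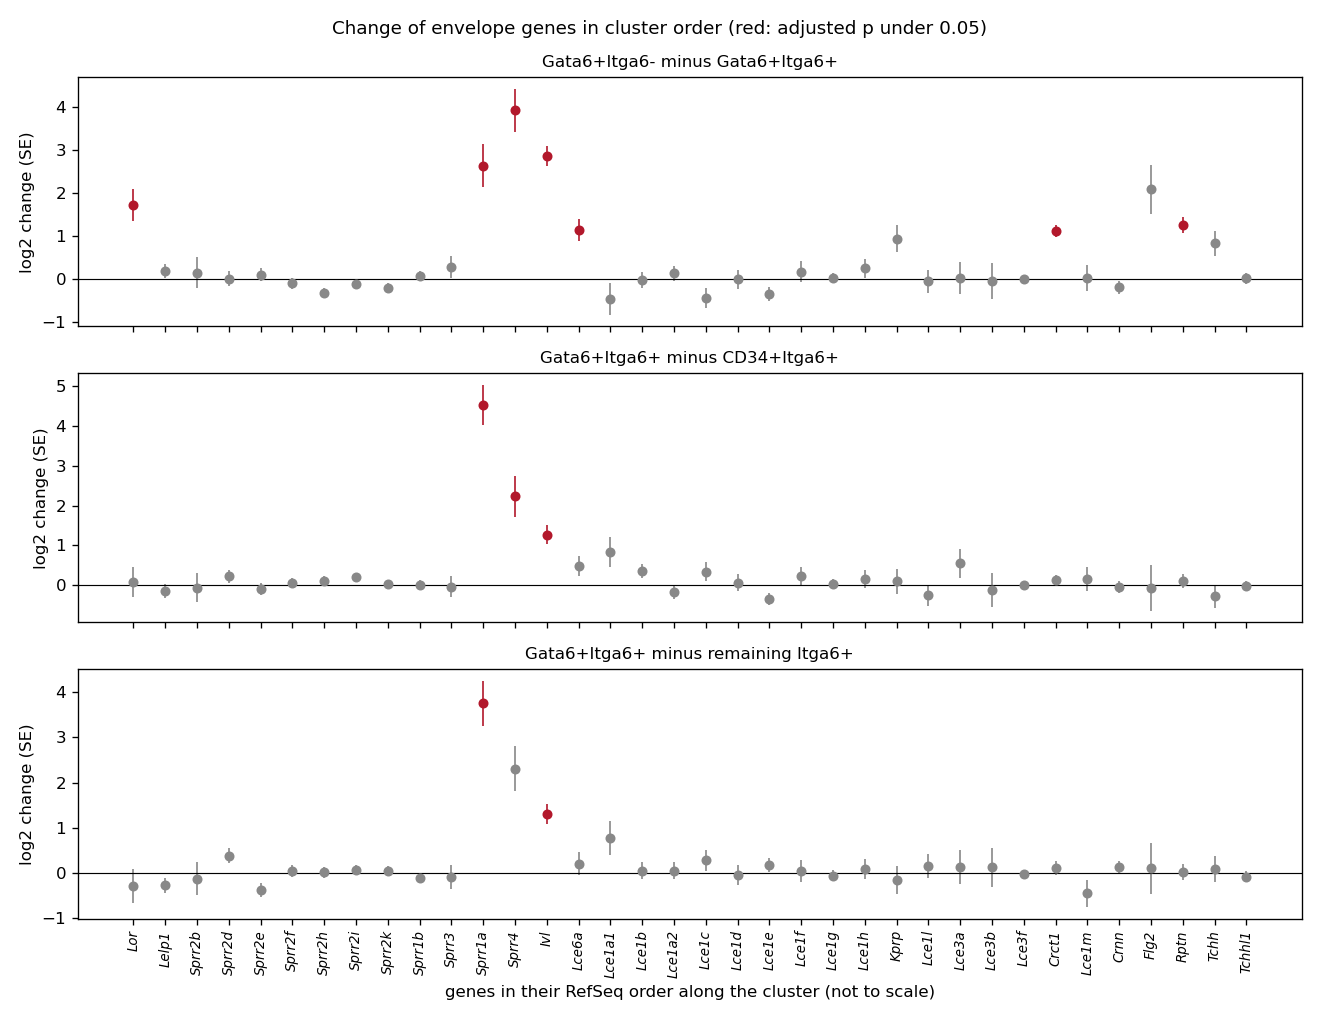
Log2 change with its standard error (vertical axis) of the members in RefSeq order along the cluster (36 genes; Sprr2a has no single place), in 3 comparisons; red points passed an adjusted p of 0.05. Sprr1a, Sprr4 and Ivl stand next to each other and high in all 3 panels, with Sprr4 grey in the lowest.

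The promoters of the 3 genes with the widest steps are shown beside those of 2 relatives that read under the silent level, Sprr1b and Sprr2h, since all belong to the same stretch of the cluster. The sequences are RefSeq's on GRCm38.p6, a later build than that of the arrays; each is the 250 bases before the annotated start, read 5′ to 3′ on the gene's strand. Sprr1a is at chr3:92485882-92486131 (minus strand), Sprr4 at chr3:92500494-92500743 (minus), Ivl at chr3:92573736-92573985 (minus), Sprr1b at chr3:92438780-92439029 (minus) and Sprr2h at chr3:92385435-92385684 (plus). Capitals mark matches on either strand to 2 sets of letters. TGANTCA is a wide form of the site of AP-1 factors such as Fos and Jun, whose middle base is usually C or G. GATAA or GATAG with A or T before them are the binding letters of GATA factors.
Sprr1a: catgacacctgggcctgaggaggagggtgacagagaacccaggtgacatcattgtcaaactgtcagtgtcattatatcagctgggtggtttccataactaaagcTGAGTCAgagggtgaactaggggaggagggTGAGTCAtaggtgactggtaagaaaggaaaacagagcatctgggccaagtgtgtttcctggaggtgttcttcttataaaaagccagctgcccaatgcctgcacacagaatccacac
Sprr4: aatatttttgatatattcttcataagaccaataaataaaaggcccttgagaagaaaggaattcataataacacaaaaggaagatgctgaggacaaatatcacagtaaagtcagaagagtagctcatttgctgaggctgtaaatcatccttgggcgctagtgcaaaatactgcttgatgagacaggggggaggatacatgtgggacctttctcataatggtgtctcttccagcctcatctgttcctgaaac
Ivl: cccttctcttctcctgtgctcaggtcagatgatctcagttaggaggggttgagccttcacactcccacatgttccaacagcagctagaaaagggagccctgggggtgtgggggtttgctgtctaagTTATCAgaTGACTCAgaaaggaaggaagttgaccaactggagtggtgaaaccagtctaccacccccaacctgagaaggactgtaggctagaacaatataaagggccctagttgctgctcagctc
Sprr1b: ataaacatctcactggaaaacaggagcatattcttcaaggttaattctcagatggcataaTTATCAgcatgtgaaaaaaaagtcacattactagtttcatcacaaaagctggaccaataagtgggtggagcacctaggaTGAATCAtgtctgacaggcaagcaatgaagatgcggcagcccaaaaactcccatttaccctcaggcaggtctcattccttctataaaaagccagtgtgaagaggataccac
Sprr2h: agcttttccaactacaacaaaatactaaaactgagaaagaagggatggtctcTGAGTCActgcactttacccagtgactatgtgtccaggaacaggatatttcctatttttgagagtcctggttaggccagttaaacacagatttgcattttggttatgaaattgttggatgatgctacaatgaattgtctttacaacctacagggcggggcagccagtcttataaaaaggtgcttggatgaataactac

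Sprr1a has 2 AP-1 matches, 139 and 109 bases before the start, and no GATA match. Ivl has 1 AP-1 match, 109 bases before the start, just downstream of a GATA match at 118 bases. Sprr4 has neither in this window. Sprr1b has 1 of each kind and Sprr2h 1 AP-1 match. Over the 33 members with a promoter entry, 15 hold an AP-1 match and 18 a GATA match, against 6.75% and 26.5% of 32851 promoters of the same length. In Crnn, Flg2, Rptn, Sprr1b and Tchhl1 the only AP-1 match has A or T in the middle. Members called in any comparison held an AP-1 match in 4 and a GATA match in 3 of 7 promoters. All 7 Sprr2 promoters hold an AP-1 match and none of the 13 Lce1 and Lce3 promoters does. These are letter matches, not binding sites, and related promoters share descent.

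Partners are the proteins that cross-link, border or later loosen the envelope. Of 22 such partners, 7 were higher and 1 lower in the Itga6- cells of the Gata6+ gate than in its Itga6+ cells, with a median log2 change of 0.43. Over all genes, 1.17% were called higher and 2.01% lower there, with a median of -0.03. The 3 with the smallest adjusted p were Klk7, a protease that cuts the links between dying cells (6.81 ± 0.40 against 3.14 ± 0.39, SD, n = 3; log2 change 3.68, adjusted p 5.68e-05), Tgm1, the transglutaminase that joins envelope proteins to the membrane (3.58 ± 0.02 against 2.00 ± 0.24; 1.58, 0.000104), and Dsc1, a desmosomal cadherin of differentiated layers (8.42 ± 0.07 against 5.71 ± 0.44; 2.71, 0.000357). Krt1 was the lower one, at 4.67, 4.73 and 4.90 against 7.69, 7.19 and 6.12 (log2 change -2.23, adjusted p 0.00725).

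In Gata6+ Itga6+ cells, 8 partners were higher and 1 lower than in CD34+ Itga6+ cells, led by Cst6, an inhibitor of cysteine proteases (log2 change 4.94, adjusted p 7.8e-06), Dsc1 (4.02, 8.12e-06) and the keratin Krt77 (3.30, 2.36e-05); Tgm5, another transglutaminase, was the lower one (-4.86, 1.91e-07), reading 7.76, 7.67 and 7.68 in CD34+ Itga6+ cells. Against remaining cells 5 were higher and none lower, led by Cst6 (4.90), Dsc1 (3.47) and Spink5, a protease inhibitor that restrains Klk7 and its relatives (1.34). Gata6+ Itga6- cells had 14 partners higher and 1 lower than CD34+ Itga6+ cells, led by Dsc1 (6.73), Cst6 (6.84) and Spink5 (3.98), and 11 higher and 2 lower than remaining cells, led by Dsc1 (6.18), Cst6 (6.79) and Klk7 (4.46). Over all genes, 2.4% were called higher and 2.18% lower in Gata6+ Itga6+ against CD34+ Itga6+ cells, and 1.07% and 0.286% against remaining cells. In Gata6+ Itga6- cells the shares were 3.22% and 4.74% against CD34+ Itga6+ cells, and 2.96% and 2.15% against remaining cells. Between CD34+ Itga6+ and remaining cells, no member was called, and 593 of 17853 genes were higher and 299 lower. There, 2 partners were higher in CD34+ Itga6+ cells (Tgm5 by 5.30, Sbsn by 1.65) and 6 lower, led by Dsg1a (-3.55), Krt1 (-4.12) and Krt10 (-2.40). Where the dimmer population of such a pair read under the silent level, its fold is only a bound. From that level, Cst6 was at least 27.2-fold and Dsc1 at least 9.76-fold brighter in Gata6+ Itga6+ cells than in either population outside the Gata6+ gate. In Gata6+ Itga6- cells the bounds were 101-fold and 64.0-fold. For Klk7, Gata6+ Itga6- cells exceeded remaining cells at least 21.0-fold. Tgm5 was at least 38.9-fold higher in CD34+ Itga6+ than in remaining cells. Tgm1 was at least 2.23-fold higher without Itga6 than with it in the Gata6+ gate.

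**Figure D5:**
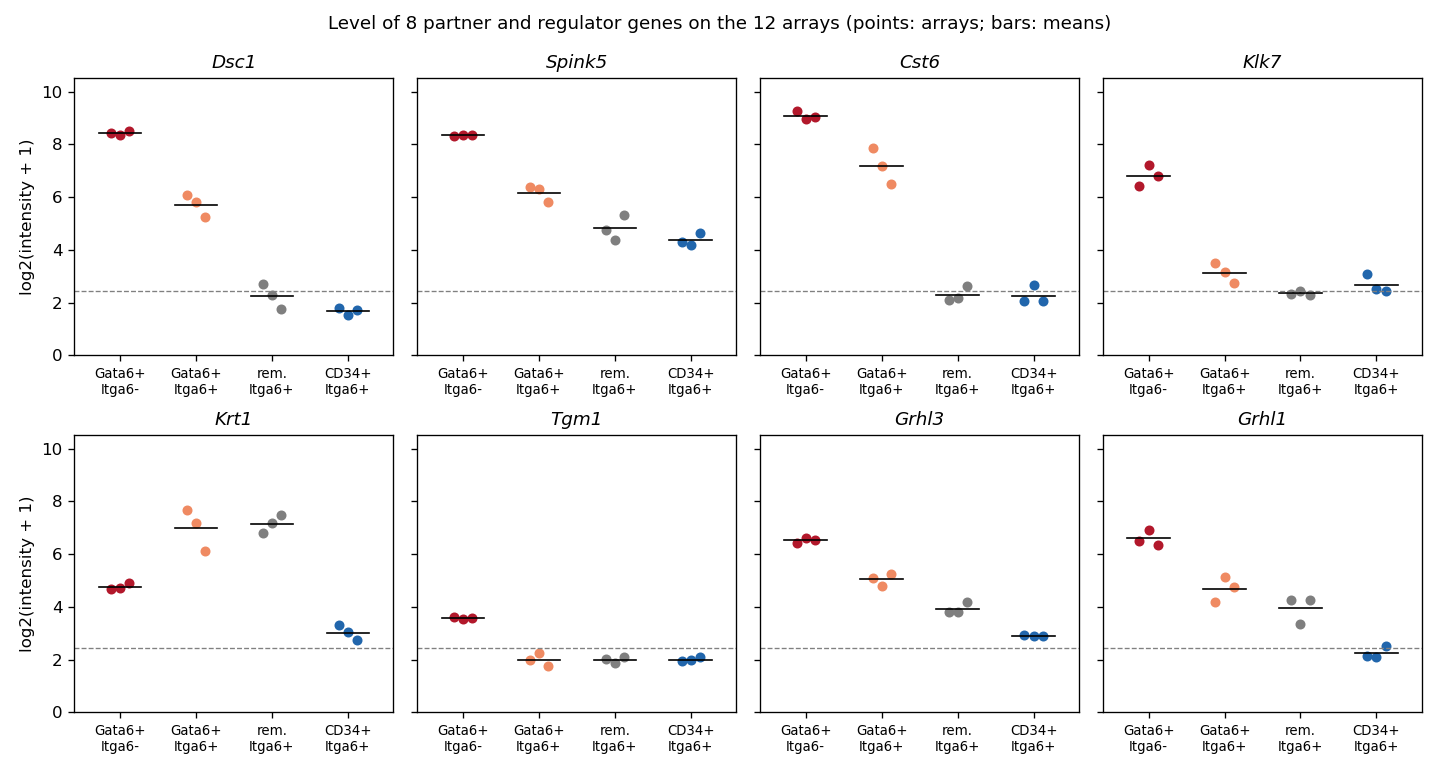
Level, log2(intensity + 1), of 6 partners and 2 regulators of envelope genes on the 12 arrays (points: arrays; bars: means of 3; dashed line: silent level). Dsc1, Spink5, Cst6, Grhl3 and Grhl1 step down from Gata6+ Itga6- to Gata6+ Itga6+ cells and further to CD34+ Itga6+ cells, Klk7 and Tgm1 stand out in Gata6+ Itga6- cells, and Krt1 is lower there than in Gata6+ Itga6+ cells.

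Of 21 known regulators of envelope genes 18 were measured. Between the Gata6+ populations 3 were higher in Gata6+ Itga6- cells and 3 lower, against 1.17% and 2.01% of all genes. The higher ones were Grhl3 and Grhl1, grainyhead factors of barrier formation (log2 changes 1.48 and 1.91, adjusted p 0.000398 and 0.00789), and Prdm1, a repressor active in granular cells (1.41, 0.00928; at least 2.03-fold from the silent level). The lower ones were Gata3 (-1.81, 0.00694), the chromatin organiser Satb1 (-1.83, 0.00876; at least 3.09-fold lower) and Trp63, the master factor of basal keratinocytes (-1.36, 0.0414). Grhl3 read 6.42, 6.59 and 6.55 in Gata6+ Itga6- cells, 5.10, 4.78 and 5.24 in Gata6+ Itga6+ cells, 3.81, 3.80 and 4.19 in remaining cells, and 2.94, 2.91 and 2.89 in CD34+ Itga6+ cells. These 4 groups did not overlap, and each step in that order was called, the last 2 at log2 changes of 1.11 (adjusted p 0.0036) and, for CD34+ Itga6+ minus remaining cells, -1.02 (0.00177). Elsewhere, 3 regulators were higher and 1 lower in Gata6+ Itga6+ than in CD34+ Itga6+ cells, 1 and 1 against remaining cells, 4 and 2 in Gata6+ Itga6- against CD34+ Itga6+ cells, 4 and 5 against remaining cells, and 1 and 5 in CD34+ Itga6+ against remaining cells. The numbers of all genes called in these comparisons are those given with the partners. Of the AP-1 components on the list, Jun, Fosl1 and Fosl2 were not called in any of the 6 comparisons, and Junb was called lower in Gata6+ Itga6- and in CD34+ Itga6+ cells than in remaining cells (adjusted p 0.0238 and 0.0207); these 4 were chosen after their values were seen.

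Marker lists of other cell types were read on the same arrays. Of 6 Langerhans cell and macrophage markers, 2 were over the silent level in Gata6+ Itga6- cells, 1 in each of Gata6+ Itga6+ and remaining cells and 0 in CD34+ Itga6+ cells; the mean of the list per array was 2.27 to 2.40 in the first and 1.75 to 2.06 in the others, and the defining marker Cd207 was under the silent level in all 4. Of 3 measured T cell markers 2 were over it in Gata6+ Itga6- cells, with Cd3e at 3.80 on replicate 3 and Cd3g at 3.27 on replicate 1, and 0 elsewhere. No gene of the Langerhans cell and macrophage or T cell lists was called in any comparison. Of 8 sebaceous gland markers, Scd1 and Plin2 were over the silent level in all 4 populations, at means of 3.05 and 5.28 in Gata6+ Itga6- cells, 4.76 and 4.80 in Gata6+ Itga6+ cells, 5.12 and 3.01 in remaining cells, and 2.96 and 4.62 in CD34+ Itga6+ cells. Between the Gata6+ populations 1 of the 8 was called lower without Itga6, against 2.01% of all genes. In Gata6+ Itga6- against remaining cells 1 was higher and 1 lower, against 2.96% and 2.15% of all genes. Of 5 fibroblast markers, 2 were over the silent level in CD34+ Itga6+ cells and 0 elsewhere; of 4 melanocyte markers, 0 in remaining cells and 1 in each other population; and of 3 endothelial markers, 0 in any. The part of such cells in the results was not tested.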

How the data were processed

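Per the submitters' processing notes, the exon arrays were summarised by RMA in Affymetrix Power Tools on mm9; versions are not given in the sources used here. The authors deposited 1 table of intensities, read as linear from its values, with 235932 probe sets on 12 arrays. Of these, 221205 name 1 gene, 1684 several and 13043 none; only the first were used, with symbols updated through RefSeq (GRCm38.p6). A gene's level is the median of log2(intensity + 1) over its probe sets. Adding 1 understates the folds of dim genes, and folds against a group under the silent level are given from that level as lower bounds.

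limma 3.58.1 in R 4.3.3 (lmFit, eBayes) fitted 1 mean per population over 12 arrays, with Benjamini-Hochberg adjustment over 17853 genes; it was first tested on simulated data. Members called in any comparison were named with all arrays, as were Ivl, Lor and Flg, and from the lists of partners and regulators at most the 3 smallest adjusted p in each direction. The members and lists were chosen with earlier results of these data known. The fit of single probe sets and some fits without 1 array were added after seeing the data. Alternatives changed the added value, probe-set summary, dim-gene filter, normalization, moderation, blocks, brightness covariate, populations fitted and arrays kept. Promoters and gene order came from RefSeq tables (33 of 37 members matched); no array value was placed on those coordinates.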

Additional observations from a re-analysis of the deposited data

How the results depend on the processing

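Over the 6 comparisons and the alternative settings other than leaving out 1 array, 59 counts of called members stayed within 1.5 times of the main count and 7 moved further. With 8 added before the log, or with just the 2 populations compared, 1 member instead of 3 was called between Gata6+ Itga6+ and CD34+ Itga6+ cells. Between Gata6+ Itga6+ and remaining cells, 1 instead of 2 was called with 8 added, with the brightest probe set or with the array upper quartile as a covariate, and 0 with just the 2 populations. Trend and robust moderation called 1 between CD34+ Itga6+ and remaining cells. Leaving out 1 array gave 4 to 7, 2 to 3, 1 to 3, 0 to 1, 6 to 9 and 5 to 8 members in the order Gata6+ Itga6- against Gata6+ Itga6+, Gata6+ Itga6+ against CD34+ Itga6+ and against remaining, CD34+ Itga6+ against remaining, and Gata6+ Itga6- against CD34+ Itga6+ and against remaining. The brightest Crct1 probe set reversed its change against CD34+ Itga6+ cells (-8e-04). The cause was not tested in any of these. With the replicate block the 6 counts, in the same order, were 6 (Lce6a lost, adjusted p 0.0568), 3, 2, 0, 8 and 7. Deviations of same-numbered arrays correlated at -0.14 to 0.28, in no comparison all over 0.1. Such correlations cannot show whether samples share animals, so any pairing stays unknown. The array letter as a block lost Lor between the Gata6+ populations (adjusted p 0.0669). Dim signal limits most members: 22 of 37 lie under the silent level, where a change could go unseen.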
